A study of Drosophila melanogaster with 4 samples.

Results

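Histone H3 is one of the 4 core histones around which DNA is wrapped in the nucleosome, the repeating unit of chromatin. An antibody against H3 itself, rather than against a modified form of it, pulls down nucleosomal DNA whatever the marks it carries. The fraction is sequenced next to input, chromatin that was sheared in the same way but not immunoprecipitated. A stretch of the genome where the ChIP fraction exceeds the input is called a region of enrichment, or cluster. The clusters described here are those of the distal X, the 3 Mb of the X chromosome arm farthest from its centromere. In *Drosophila* the distal X carries genes such as *yellow* (cuticle pigment), the proneural genes *achaete* and *scute*, *broad* (a transcription factor of the response to the moulting hormone ecdysone) and *white* (a transporter of eye pigment precursors). They lie in this order along the X in the RefSeq table of Release 6, which is a later assembly than that of the files, so no gene was assigned to a cluster.

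The samples were nuclei of 3rd instar larvae from the Oregon-R-modENCODE stock of the wild-type strain Oregon-R. The labels name no transgene and no treatment. The series held 4 libraries, 2 of H3 ChIP and 2 of input, and input 1 and input 2 belonged to ChIP 1 and ChIP 2 by number. The authors deposited a list of clusters for each ChIP replicate and a further list for the replicate set (the combined list). The labels name no separate cultures, so the spread between replicates may be technical.

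The members were chosen by position and by sign: all clusters on the X with a log2 value above 0 and a midpoint between base 1 and base 3000000 of FlyBase r5. The log2 value is the authors' enrichment of ChIP over input for a cluster; no header names the scale, which was read from the values. There were 446 among the 3584 combined clusters of the window and the 17.4 Mb next to it, and 23076 combined clusters in the whole genome. In the same window replicate 1 had 404 clusters of 18082 and replicate 2 had 411 of 18625. These 17.4 Mb, called the rest of the X here, leave out the part of the arm next to the centromere and held 2304, 2433 and 3138 clusters in replicate 1, replicate 2 and the combined list. The window was proposed after its wide clusters and its coverage in these lists had been seen. Its coverage, widths and values are therefore given as descriptions, with no test against the rest of the X. Read depth is unknown, since the files hold no counts.

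H3 clusters covered a larger share of the distal X than of the rest of the X. Counted in covered bases, clusters of at least 10 kb made up most of the difference. The covered share was 44.7% of the distal X in replicate 1 and 52.0% in replicate 2, a mean of 48.3 ± 5.22% (SD, n = 2). It was 33.9% and 39.2% of the rest of the X, a mean of 36.6 ± 3.74% (SD, n = 2). The ratio of distal to rest was 1.32 in replicate 1 and 1.33 in replicate 2. The window was chosen with its coverage known, so these values are no test of the difference. In the combined list the shares were 62.3% and 52.8%, a ratio of 1.18. Clusters of at least 10 kb were then taken out of both parts of the X, with their bases counted as uncovered. The mean ratio of the replicates was 1.05. Shares of the remaining bases alone were not computed. The number of clusters per length did not differ in the same way: there were 13.6 ± 0.165 per 100 kb in the distal X and 13.6 ± 0.524 in the rest (SD, n = 2 each). In the combined list the distal X had fewer, 14.9 against 18.03 per 100 kb.

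The window was far from uniform. In bins of 100 kb the mean covered share of the replicates ran between 4.32% and 89.0%, and the median distal bin had 50.6%, against 35.3% for the median of the 174 bins of the rest. Of the 30 distal bins, 24 lay above that median and 4 lay below the lower quartile of the rest, 27.8%. The sparse bins sat at both ends of the window. All 23 bins between 0.4 and 2.7 Mb exceeded the median of the rest, from 39.0% to 89.0%. By blocks of 500 kb, counted from the end of the arm, the covered share was 19.8 ± 3.16%, 49.6 ± 4.98%, 69.3 ± 6.87%, 63.4 ± 5.39%, 52.0 ± 4.65% and 35.97 ± 6.26% (SD, n = 2 each).

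**Figure D1:**
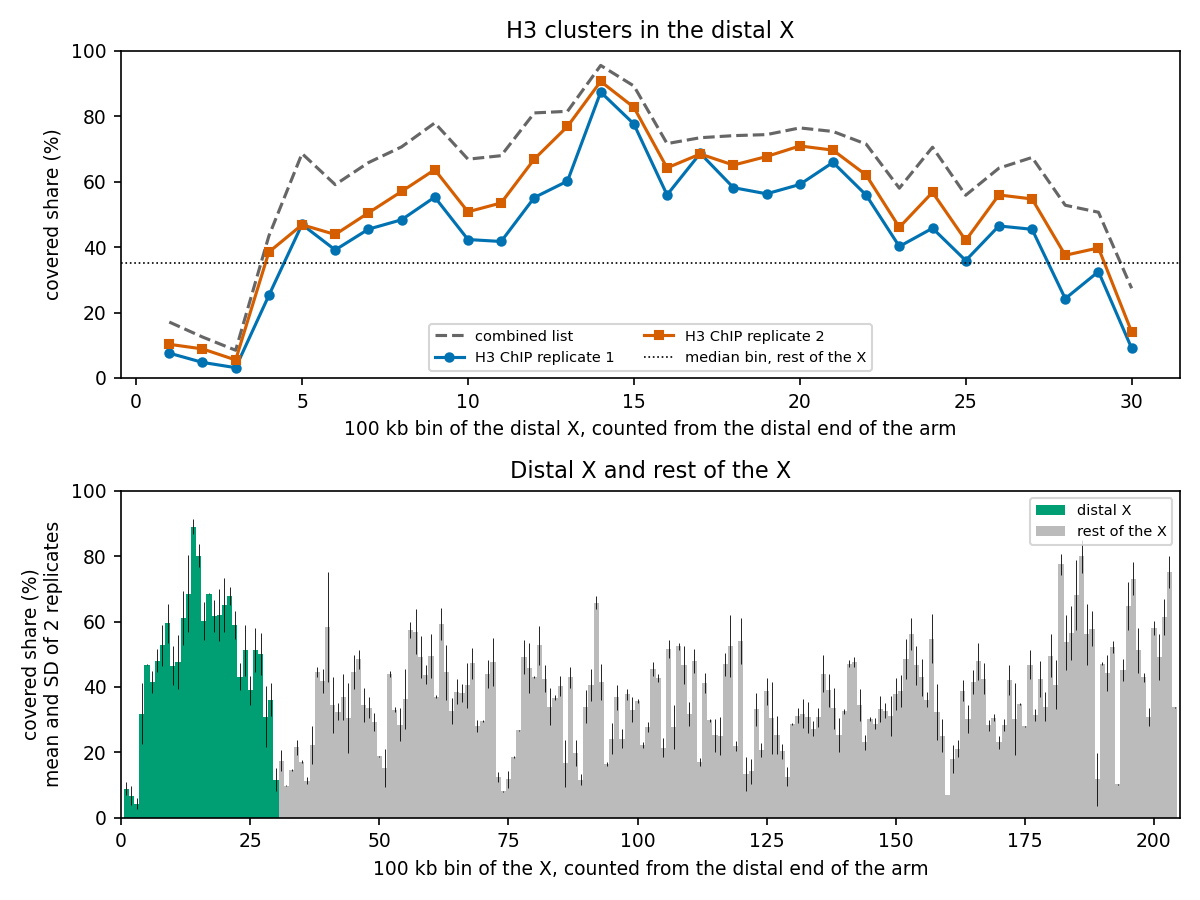
Covered share of each 100 kb bin in percent. The upper panel shows the 30 distal bins in both H3 ChIP replicates and the combined list. Its dotted line is the median bin of the rest of the X by the mean of the replicates, 35.3%. For the combined list that median was 54.5%. The lower panel shows all 204 bins of the X as mean and SD of 2 replicates. By their means the distal bins peak at 89.0% and drop to 4.32% near the end of the arm.

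The highest of the 204 bins of the X was that from 1.3 to 1.4 Mb, with 87.4% covered in replicate 1 and 90.6% in replicate 2 (89.0 ± 2.30%, SD, n = 2). The next by its mean was the neighbour from 1.4 to 1.5 Mb, with 77.6% and 82.7% (80.2 ± 3.60%, SD, n = 2). The bin from 18.5 Mb, in the rest of the X, lay within that spread with 79.9 ± 5.12% (SD, n = 2), and it was the higher of these in replicate 2, at 83.5%. In the combined list the bin from 1.4 Mb had 89.2%, less than the bins from 18.5, 18.1 and 18.4 Mb with 92.2%, 90.5% and 89.5%. The bins from 1.3 and 1.4 Mb were filled by few and long clusters. The bin from 1.3 Mb held 10 clusters in each replicate and that from 1.4 Mb held 8 in replicate 1 and 6 in replicate 2. Also among the highest were the bins from 1.6 Mb (68.5 ± 0.14%) and from 1.2 Mb (68.5 ± 11.8%, SD, n = 2 each), which ranked seventh and eighth on the X by their means. The bin from 1.2 Mb had 60.2% in replicate 1 and 76.9% in replicate 2, the widest gap between the replicates in the window.

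The end of the arm was the sparsest part. The 3 bins of the first 300 kb had 8.94 ± 1.91%, 6.82 ± 2.91% and 4.32 ± 1.67% (SD, n = 2 each). By their means, those from 0.1 and 0.2 Mb were the lowest of all 204 bins. In replicate 2 the bin from 0.1 Mb had 8.88%, above those from 7.3 and 15.9 Mb with 8.24% and 7.00%. In the combined list it had 12.5%, above the bin from 15.9 Mb with 8.81%. Replicate 1 had 9 clusters in these 300 kb and replicate 2 had 11, none wider than 3290 bp. Their median log2 value was 0.50 in replicate 1 and 0.55 in replicate 2, against 0.63 in both replicates for the rest of the window. The first combined cluster of the arm ran from 5068 to 8574, with a log2 value of 0.70, and both replicates had a cluster in it. Without the first 300 kb the mean covered share of the window was 53.0%.

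The fourth sparse bin was the last of the window, from 2.9 to 3.0 Mb, with 9.09% in replicate 1 and 14.1% in replicate 2 (11.6 ± 3.54%, SD, n = 2). Low coverage went on past the edge: the next 7 bins, up to 3.7 Mb, had between 9.80% and 22.2%. The edge at 3 Mb therefore lies inside a sparse stretch. The last 3 combined clusters inside it spanned 1647, 1289 and 1307 bp, with log2 values of 0.32, 0.32 and 0.21. The first 3 outside spanned 1357, 1039 and 2311 bp, with values of 0.37, 0.56 and 0.56. Both replicates covered at least 50% of none of these 6.

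Long stretches without a combined cluster also lay mostly near the end of the arm. Of the 5 longest in the window, 4 were within the first 300 kb. They ran from 181673 to 239993 (58.3 kb), from 96065 to 138329 (42.3 kb), from 57775 to 92991 (35.2 kb) and from 36291 to 56607 (20.3 kb). The other one ran from 580125 to 612633 (32.5 kb). Replicate clusters reached into 3 of the 5 and covered at most 0.148% of any. Whether sequence reads can be placed in these stretches was not tested. Over the whole window clusters stood closer together than in the rest of the X: the median stretch without a cluster was 1850 bp in replicate 1 and 1353.5 bp in replicate 2, against 2501 bp and 2241 bp. No region labelled as depleted lay in the 3 Mb of the distal X in any of the lists. The 17.4 Mb of the rest had 12 in the combined list and 0 in each replicate. Counts this low over unlike lengths do not set the parts apart.

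Clusters were wider in the distal X than in the rest of the X as a whole. The median width was 2292 bp in replicate 1 and 2385 bp in replicate 2, against 2009.5 bp and 2111 bp in the rest of the X, a ratio of 1.14 ± 0.0076 (SD, n = 2). The lower quartiles were 1666 bp against 1590.5 bp in replicate 1 and 1608 bp against 1638 bp in replicate 2, so the direction was not the same in the replicates. In the combined list they were 1741 bp against 1517.5 bp. The upper quartiles averaged 3823 bp in the distal X and 3123 bp in the rest over the replicates. Clusters of at least 10 kb numbered 19 in replicate 1 and 27 in replicate 2, or 6.33 and 9.00 per Mb, against 17 and 28 in the rest of the X, or 0.977 and 1.61 per Mb. In the replicate lists the distal X thus had about as many of these as the whole rest of the X. The window was chosen with its wide clusters known, so this is no test of the difference. In the combined list there were 35 against 58, or 11.7 against 3.33 per Mb, a ratio of 3.50 where the replicates had a mean ratio of 6.04. In the replicates such clusters held 24.4 ± 6.78% of the covered bases of the distal X and 4.74 ± 1.57% of those of the rest (SD, n = 2 each).

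**Figure D2:**
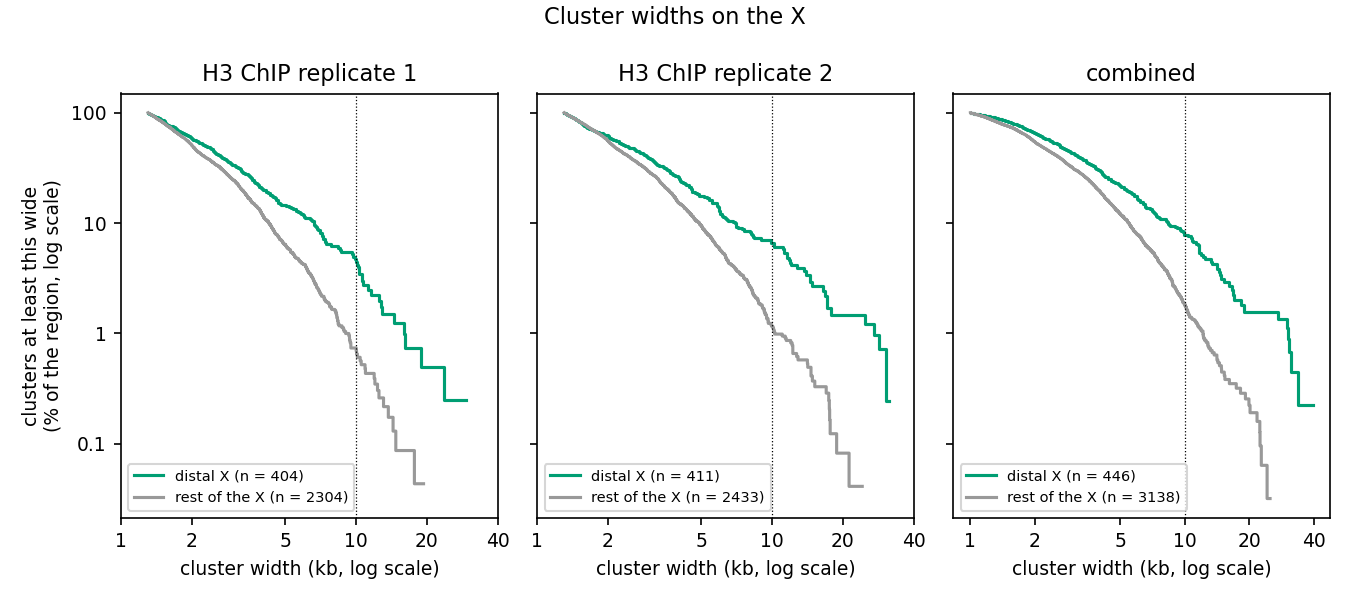
Share of clusters at least as wide as the value on the x axis (both axes logarithmic), for the distal X and the rest of the X in each replicate and in the combined list. The curves start together and part toward wide clusters; at 10 kb, the dotted line, the distal X keeps 4.70% and 6.57% of its clusters in replicates 1 and 2, and the rest 0.738% and 1.15%.

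Most of the wide clusters lay between 1 and 2 Mb. This stretch held 15 of the 19 clusters of at least 10 kb of replicate 1, 20 of the 27 of replicate 2 and 22 of the 35 of the combined list. Of the 35 combined ones, 34 had at least 50% of their length in clusters of each replicate. Replicate 1 covered 48.99% of the remaining one. Of the 10 widest combined clusters, 6 lay between bases 1293802 and 1666740 and together filled 177.6 kb of those 372.9 kb.

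The widest ran from 1293802 to 1333424 (39.6 kb), with a combined log2 value of 0.86. Replicate 1 covered 87.1% of it with 4 clusters and replicate 2 covered 90.8% with 4, the widest of them 10545 bp and 13887 bp. Neither replicate called it as 1 region. The second ran from 2598494 to 2632390 (33.9 kb, log2 value 0.78). It was split into 7 clusters in replicate 1 and 3 in replicate 2, which covered 90.8% and 98.8% of it. Their mean log2 value, weighted by overlap, was 0.69 in replicate 1 and 0.92 in replicate 2, the widest difference between replicates among the 10.

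Most of the others were a single region in replicate 2. The cluster from 1380000 to 1410676 (30.7 kb, log2 value 0.93) was 1 region of 29332 bp in replicate 1, the widest of the window in that list, and 1 of 30609 bp in replicate 2. The cluster from 1598578 to 1630088 (31.5 kb) had a value of 1.02, the highest among the 10, and was 2 clusters in replicate 1 and 1 of 31550 bp in replicate 2. The regions from 822016 to 852378 (30.4 kb, log2 value 0.82), from 1473040 to 1503250 (30.2 kb, 0.97) and from 1639436 to 1666740 (27.3 kb, 0.94) were covered to at least 89.2% by each replicate. The first of these was split into 6 clusters in replicate 1 and 2 in replicate 2. Smaller were those from 2070656 to 2089552 (18.9 kb, log2 value 0.67), from 1579286 to 1597568 (18.3 kb, 0.87) and from 1753202 to 1770308 (17.1 kb, 0.80). In replicate 2, 7 of the 10 were a single cluster, and in replicate 1 only that from 1380000 was. Replicate 2 had the higher value in all 10 and the larger covered part in 9.

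**Figure D3:**
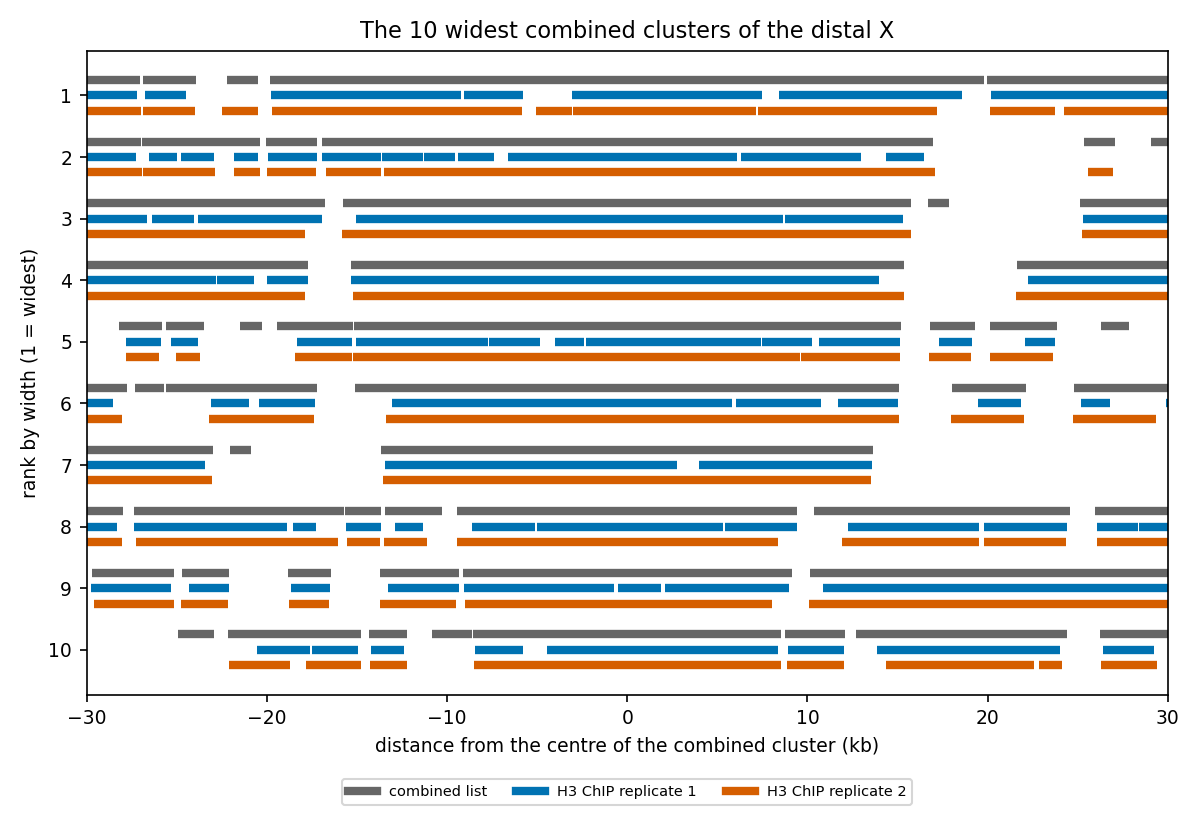
The 10 widest combined clusters of the distal X, ranked by width down the y axis and aligned at their centres; bars mark clusters of the combined list, replicate 1 and replicate 2 within 30 kb of the centre. Most are 1 bar in replicate 2 (7 of 10) and several in replicate 1.

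Several wide clusters were near neighbours. When combined clusters less than 500 bp apart were joined, the longest region ran from 2573974 to 2632390 (58.4 kb) and was made of 4 clusters. The next, from 1293802 to 1343950 (50.1 kb), was made of 2. Joined in this way, regions of at least 10 kb held 39.9% of the covered bases of the distal X as a mean of the replicates.

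Values went with width, and little separated the distal X from the rest at a given width below 10 kb. The median log2 value of all clusters was 0.63 in both replicates of the distal X and 0.61 and 0.60 in replicates 1 and 2 of the rest. The difference of distal minus rest was 0.015 in replicate 1 and 0.028 in replicate 2 (0.022 ± 0.0089, SD, n = 2), or 1.02-fold. In the distal X, clusters under 2 kb had a median of 0.49 ± 0.019, those of 2 to 5 kb 0.69 ± 0.013, those of 5 to 10 kb 0.83 ± 0.0055 and those of at least 10 kb 0.92 ± 0.087 (SD, n = 2 each). The same classes in the rest of the X had 0.50 ± 0.033, 0.68 ± 0.0056, 0.81 ± 0.040 and 0.86 ± 0.056 (SD, n = 2 each). Only the widest class had a difference above 0 in both replicates that exceeded its SD, 0.028 in replicate 1 and 0.073 in replicate 2 (0.050 ± 0.031, SD, n = 2). In the first 3 classes the sign of the difference was not the same in the replicates. In the combined list the difference was 0.080 in the widest class and -0.0094, 0.00042 and -0.012 in the first 3. The widest class had no upper limit, and widths inside it were not matched. Its widest cluster spanned 29332 and 31550 bp in replicates 1 and 2 of the distal X, against 19348 and 24157 bp in the rest. Across clusters of the distal X, Spearman's rho between width and value was 0.725 over 404 clusters in replicate 1 and 0.793 over 411 in replicate 2, against 0.665 and 0.744 in the rest; the clusters of a list share 1 library, and no test was made.

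**Figure D4:**
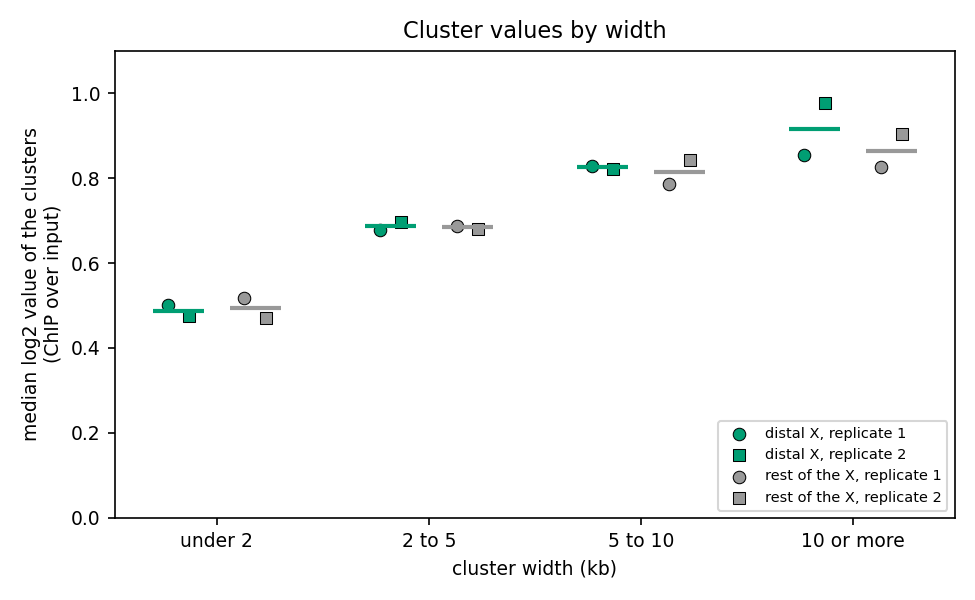
Median log2 value of ChIP over input by width class, for the distal X and the rest of the X; points are the replicates and lines their mean. Medians go up with width in both parts, from 0.49 to 0.92 in the distal X, and the parts lie closest between 2 and 5 kb (0.69 and 0.68).

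Along the window the bins with the most coverage also had the highest values. The median log2 value of the bin from 1.3 Mb was 0.83 in replicate 1 and 0.94 in replicate 2, and that of the bin from 1.4 Mb was 0.88 and 1.00. The 3 bins at the end of the arm had 0.40 to 0.61. Over the 30 bins, Pearson's r between covered share and median value was 0.787 in the distal X, against 0.347 over 174 bins of the rest. The number of clusters per bin showed the reverse order, with r = 0.429 to the covered share in the distal X and 0.841 in the rest. By Spearman's rho, covered share and median value had 0.775 in the distal X and 0.410 in the rest. Covered share and cluster number had 0.195 and 0.859. These are descriptions of bins that share libraries and neighbours.

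The highest combined value of the window, 1.505, belonged to a short region from 1631046 to 1632210 (1165 bp) in which neither replicate had a cluster. It lay 957 bp past the end of the 31.5 kb cluster from 1598578. The next 4 were covered to at least 95.7% by each replicate. They were the region from 1891394 to 1898584 (7.19 kb, log2 value 1.08), that from 1434450 to 1449194 (14.7 kb, 1.05), the 31.5 kb cluster itself and that from 1416974 to 1433710 (16.7 kb, 1.01). The first of these had 0.95 in replicate 1 and 1.31 in replicate 2, the highest value of the window in that list. The 5 lowest values, 0.016 to 0.048, belonged to regions of 1323 to 1587 bp, starting at 369420, 781558, 630818, 1163184 and 390388, and none of them was called in both replicates.

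Most of the covered bases were covered by both replicates. Both covered 42.0% of the distal X, replicate 1 alone 2.63%, replicate 2 alone 10.0% and neither 45.3%. The Jaccard index, the bases covered by both over those covered by either, was 0.769 in the distal X and 0.701 in the rest. Of the clusters of replicate 1, 380 of 404 (94.1%) lay to at least 50% of their length in clusters of replicate 2. In the other direction it was 324 of 411 (78.8%). In the rest of the X these shares were 88.6% and 77.2%. Both the index and these shares can rise with coverage alone, which was higher in the distal X, and no correction was made. The 22 clusters of replicate 1 (5.45%) with no base in replicate 2 had a median width of 1516.5 bp, against 2401.5 bp for the shared ones. For the 72 such clusters of replicate 2 (17.5%) the medians were 1519.5 bp and 2844 bp. The rest of the X showed the same contrast. There 214 clusters of replicate 1 (9.29%) and 457 of replicate 2 (18.8%) had no base in the other. Their medians were 1489.5 bp against 2101 bp for the shared ones in replicate 1, and 1528 bp against 2367 bp in replicate 2.

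Replicate 2 covered more in 28 of the 30 bins, by a median of 7.07 percentage points, and Pearson's r between the replicates over bins was 0.981. In the rest of the X it covered more in 155 of 174 bins, by a median of 5.33 percentage points, with r = 0.960. Among 324 pairs of distal clusters that overlapped each other best, replicate 2 was the wider in 240. In the rest it was the wider in 1316 of 1908. Over the distal pairs the median difference in log2 value of replicate 2 minus replicate 1 was 0.053, with an SD of 0.13. It was 0.021 over 1908 pairs in the rest of the X, and whether these differ was not tested. The 5 largest differences all had the higher value and the wider cluster in replicate 2. The largest was at 2590679 to 2592500 in replicate 1 (log2 value 0.47) and 2588544 to 2592587 in replicate 2 (0.90), a difference of 0.43. The next, at 1264527 to 1267018 (0.59) and 1264342 to 1268372 (1.01), also differed by 0.43. The others, of 0.41, 0.41 and 0.39, began at 2960451, 2703651 and 1112753 in replicate 1.

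Of the 446 combined clusters, 270 lay to at least 50% of their length in clusters of each replicate, a share of 60.5% (55.9 to 65.0%, 95% Wilson interval). A further 20 were covered by replicate 1 alone, 77 by replicate 2 alone and 79 (17.7%) by neither. The interval covers counting error only and treats neighbouring regions as independent. In the rest of the X both replicates covered 51.7% and neither covered 25.7%. These shares too were not corrected for the higher coverage of the distal X. Support went with width in both parts. The narrowest combined cluster was 1003 bp in the distal X and 1001 bp in the rest, but no replicate cluster was under 1301 bp. Whether these unlike lower ends account for the low support under 2 kb was not tested. Of the clusters under 2 kb, 25.7% in the distal X and 18.1% in the rest were covered by both, and among those of 2 to 5 kb the order was the reverse, 72.1% and 76.2%. Clusters of 5 to 10 kb reached 88.7% and 90.5%, and those of at least 10 kb 97.1% and 96.6%.

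High coverage was not particular to the distal end of the X. When the arm was divided into stretches of 3 Mb, the distal X had 48.3 ± 5.22% covered, and those from 3 to 18 Mb had between 30.3 ± 3.26% and 36.2 ± 3.00% (SD, n = 2 each). The last stretch, the 2.4 Mb from 18 Mb to the end of the part compared, had 51.7 ± 5.01% (SD, n = 2). Its share was above that of the distal X in each list: 48.2% against 44.7% in replicate 1 and 55.2% against 52.0% in replicate 2. In the combined list the shares were 68.3% and 62.3%. Of the 20 bins of the X with the highest mean coverage, 11 lay in the distal X, 7 among the 24 bins from 18 Mb and 2 elsewhere. By the combined list 7 of the top 20 lay in the distal X. The stretches differed in how the bases were packed. Clusters of at least 10 kb held 19.6% of the covered bases of the distal X in replicate 1 and 29.2% in replicate 2. From 18 Mb on, 7 clusters of replicate 1 and 10 of replicate 2 were that wide, and they held 8.03% and 11.2%. The distal X had fewer clusters per length, 407.5 ± 4.95 in 3 Mb, against 410 ± 1.41 in 2.4 Mb of the last stretch (SD, n = 2 each). Median widths did not separate them: they were 2292 and 2385 bp in replicates 1 and 2 of the distal X, against 2047 and 2521 bp in the last stretch, and 2626 against 2661 bp in the combined list. Median log2 values lay close together, at 0.63 in both replicates of the distal X and at 0.63 and 0.62 in replicates 1 and 2 of the last stretch.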

How the data were processed

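ChIP-seq with an antibody against histone H3 was analysed in 2 ChIP replicates, each with its own input. Reads were aligned with Bowtie 0.12.7, per the submitters' processing notes. Per the file headers, positions refer to the FlyBase r5 assembly. The authors deposited, per list, the first base, last base and a value of each region of significant enrichment or depletion. The deposited value was taken to be a log2 ratio of ChIP to input. Not given in the sources used here are the caller, its thresholds, the scaling to input and how the replicates were joined. The scale was inferred from differences between the 40 highest values of each list. On a log2 scale they matched a ratio of 2 whole numbers (denominator up to 100, tolerance 1e-08) in 449 of 496 pairs of replicate 1. In replicate 2 they did in 343 of 406 pairs and in the combined list in 55 of 55. These are fewer pairs than 40 distinct values would give. On a natural log scale 0 pairs matched in each list, and on a log10 scale 7, 3 and 1 did in the same order. Starts and ends in the combined list were all even, and those in the replicate lists were even and odd. Values of different lists were not compared by tests.

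Coverage was counted per base, and clusters were assigned to a window or a 100 kb bin by their midpoint, using numpy 2.4.6, scipy 1.17.1 and pandas 2.3.3 under Python 3.11.15, with matplotlib 3.10.9 for figures. A cluster counted as covered by a list when at least 50% of its length was. Means are given with the SD of 2 replicates. The procedures for coverage, overlap, merging and stretches without clusters were tested on simulated lists with known answers. No test was run, because the window, the members and the named lists were chosen with earlier results of these data known. Regions are also not replicates, and an exact test on 2 replicates cannot pass the usual threshold. Depth is unknown. The regions named were the 10 widest, the 5 highest and 5 lowest values, the 5 replicate pairs with the largest difference, the 4 highest and 4 lowest bins, the 5 longest stretches without clusters and the 3 clusters on each side of the edge. No genome sequence of FlyBase r5 was used here. Of 25 gene symbols looked up for their order along the X, 24 were found, and some are named as background.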

Additional observations from a re-analysis of the deposited data

How the results depend on the processing

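The ratios of covered shares and of median widths stayed above 1, and the difference of median values above 0, in all 30 values recomputed with both replicates or from the combined list. Leaving out 1 of 2 replicates moves a mean by less than their SD whatever the data, and where the rest ends cannot change values of the distal X alone, so neither tests those values. Ending the rest at 18 Mb and leaving out the first 300 kb were added after seeing the data. The window itself was proposed after its coverage and wide clusters in these lists had been seen. The settings reuse those lists, so the 30 values are no independent test of the direction. Assignment by the first base, not among the 30, changed nothing, as no cluster moved across the edge.

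The covered share of the distal X, 48.3%, was 62.3% in the combined list, 42.7% for a window of 4 Mb, 41.4% with only values from the list median upward, 42.0% without the 8 bins of the 6 widest clusters, 36.4% without clusters of at least 10 kb, and 44.7 to 52.0% with 1 replicate left out. Its ratio to the rest, 1.32, was 1.18 in the combined list, 1.37 for a window of 2 Mb, 1.15 for 4 Mb, 1.37 against the X to its end, 1.41 against the X to 18 Mb, 1.46 with the higher values, 1.15 without the bins of the widest clusters, 1.05 without clusters of at least 10 kb, 1.45 without the first 300 kb, and 1.32 to 1.33 with 1 replicate left out. The ratio of median widths, 1.14, was 1.23, 1.26, 1.09, 1.15, 1.15, 1.16, 1.08, 1.09 and 1.16 under the same settings in the same order, 1.26 with clusters closer than 500 bp merged, and 1.13 to 1.14 with 1 replicate left out. The difference of median log2 values, 0.022, was 0.035 in the combined list, 0.011 without the bins of the widest clusters, 0.011 without clusters of at least 10 kb, and 0.015 to 0.028 with 1 replicate left out. The share of covered bases in clusters of at least 10 kb, 24.4%, was 32.2% in the combined list, 39.9% after merging, 9.55% without the bins of the widest clusters, and 19.6 to 29.2% with 1 replicate left out. Clusters per 100 kb, 13.6, were 14.9 in the combined list, 13.2 for 2 Mb, 12.8 for 4 Mb, 9.53 with the higher values, 10.5 after merging, 13.9 without the bins of the widest clusters, and 13.5 to 13.7 with 1 replicate left out. Combined clusters lying in both replicates made up 60.5% at an overlap of 50%, 65.7% at 1 bp, 34.98% at 80%, 54.5% for 4 Mb, and 65.0 to 77.8% with 1 replicate left out, as only 1 then has to cover a cluster. Above the median of the rest lay 43 of 60 bins of 50 kb (71.7%), 24 of 30 bins of 100 kb and, an equal share, 12 of 15 bins of 200 kb; in the combined list 23 of 30 did (76.7%), and with 1 replicate left out 23 to 25 of 30 did. Clusters of at least 10 kb and lower values are removed by construction in these settings, and the bases of removed clusters counted as uncovered. The bins of the widest clusters and the first 300 kb were left out of the distal X only, with the rest kept whole. The cause of the other changes was not tested.

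No paired analysis was possible because the files used here give no separate values for the input libraries. Depth is unknown, so differences in coverage between the lists cannot be told apart from depth.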
